A study of Mus musculus with 12 samples.

Results

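The 10 genes described here encode the coat of the lipid droplet in brown fat and the enzymes that empty it: the perilipins Plin1, Plin2, Plin3, Plin4 and Plin5, the droplet fusion proteins Cidea and Cidec, the lipases Pnpla2 and Lipe, and the lipase co-activator Abhd5. They were chosen by name, as the probe sets annotated with exactly 1 of these symbols, and all 10 were measured, each by 1 probe set, among 22180 genes in all. Gene expression was measured on 12 Affymetrix whole-transcript arrays of brown fat from male mice aged 10 weeks on standard chow, in 4 groups of 3. The KO cold group were Zbtb7b knockout mice after 4 h at 4 °C, and the WT cold group were wild-type mice given the same exposure. The KO room temperature and WT room temperature groups were knockout and wild-type mice kept at 22 °C. Zbtb7b encodes a zinc finger transcription factor, and the allele, the strain and the tissues in which it was deleted are not given in the sources used here. The questions addressed are how the droplet genes responded to acute cold, and whether their level or their response differed in the knockout.

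The triacylglycerol of a fat cell is stored in droplets whose surface carries perilipins, which control the access of lipases. When noradrenaline raises cAMP in a brown adipocyte, protein kinase A phosphorylates perilipin 1 and hormone-sensitive lipase (Lipe), perilipin 1 releases ABHD5, and ABHD5 activates adipose triglyceride lipase (Pnpla2), which makes the first cut. CIDEA and CIDEC sit at contacts between droplets and let droplets grow by lipid transfer. Much of this control acts on the proteins, whereas the arrays report transcripts.

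All values are log2 signals after RMA, a procedure that removes background, gives every array the same distribution and combines a probe set's probes into 1 value, so that a difference of 1 is a 2-fold change in signal. Levels of different genes are not set against each other, because probe sets differ in brightness. Differences are given with the standard error and the Benjamini-Hochberg adjusted p of a limma fit over all 22180 genes and 12 arrays, and a gene was called where that p was under 0.05. By their titles the 3 arrays of a group are biological replicates, but another label field counts pools; the number of animals behind an array is not given, and p-values cover only the spread among these arrays. In bulk tissue, fewer cells of a type and less RNA per cell cannot be told apart.

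Zbtb7b itself was at 2.96, 3.38 and 3.01 in KO cold and 4.36, 4.26 and 4.63 in WT cold, and at 3.62, 3.50 and 3.30 in KO room temperature and 4.47, 4.52 and 4.76 in WT room temperature. It was lower in KO, with differences of -1.30 ± 0.16 in the cold (limma, adjusted p = 0.00365) and -1.11 ± 0.16 at room temperature (adjusted p = 0.00904), in the direction the labels give, although where the probe set lies relative to the deleted part is not known. Array medians lay between 2.63 and 2.83, and arrays of 1 group correlated at 0.970 to 0.985 across genes. Ucp1 lay between 11.55 and 12.95 and Fabp4 between 12.79 and 12.92 on every array, while a 10-gene hepatocyte list averaged 2.22 to 2.71, although 1 label field names liver and a different knockout. The 14-gene skeletal muscle list ranged from 4.97 to 8.85 in KO cold, 5.75 to 8.40 in WT cold, 3.58 to 9.12 in KO room temperature and 3.15 to 7.04 in WT room temperature, so the dissections differed in their muscle transcripts.

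The regions around the RefSeq starts of Plin2, Abhd5 and Plin3 are shown because these are the 3 members that changed in the cold in both genotypes. Each window runs from 250 bases before to 50 bases after the start in GRCm38.p6, 5′ to 3′ on the gene's strand. Capitals mark exact matches on either strand to TGACG (the core of the cAMP response element), AGGTCA (a nuclear receptor element), GGGCGG (a GC box), CCAAT or CACGTG (an E-box). The Plin2 window is chr4:86670010-86670309 on the minus strand, the Abhd5 window is chr9:122351366-122351665 on the plus strand, and the Plin3 window is chr17:56290462-56290761 on the minus strand.
Plin2: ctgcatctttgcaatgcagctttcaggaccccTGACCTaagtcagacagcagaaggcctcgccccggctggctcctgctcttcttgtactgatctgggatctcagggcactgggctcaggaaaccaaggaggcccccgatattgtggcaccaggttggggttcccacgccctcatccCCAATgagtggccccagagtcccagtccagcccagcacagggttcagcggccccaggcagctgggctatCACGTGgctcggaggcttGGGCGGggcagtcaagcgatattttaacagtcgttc
Abhd5: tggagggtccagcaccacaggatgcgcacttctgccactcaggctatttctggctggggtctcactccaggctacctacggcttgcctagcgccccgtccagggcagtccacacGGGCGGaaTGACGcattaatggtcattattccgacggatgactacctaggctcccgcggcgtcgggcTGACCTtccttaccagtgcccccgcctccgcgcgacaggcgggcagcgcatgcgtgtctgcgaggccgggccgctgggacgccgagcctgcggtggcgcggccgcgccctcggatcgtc
Plin3: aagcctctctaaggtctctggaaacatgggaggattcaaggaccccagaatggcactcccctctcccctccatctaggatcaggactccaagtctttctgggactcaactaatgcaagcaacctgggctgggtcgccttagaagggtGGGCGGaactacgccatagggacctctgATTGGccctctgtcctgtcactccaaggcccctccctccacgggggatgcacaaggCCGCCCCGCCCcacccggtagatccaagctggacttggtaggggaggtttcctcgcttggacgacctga

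The Plin2 window held the nuclear receptor element, the CCAAT box, the E-box and the GC box. The Abhd5 window held the GC box, the cAMP response core and the nuclear receptor element, and the Plin3 window held the CCAAT box and 3 GC boxes, of which 2 overlap. RefSeq windows were used for 9 of the 10 genes, 12 windows in all, and no window was used for Cidea. Plin5, Cidec and Lipe have 2 windows each, and those of Plin5 overlap and share a GC box. The 12 windows are therefore not independent units. TGACG was in 1 of the 12, against 20.8% of the 32851 mouse windows of this length, and AGGTCA was in 4, against 16.3%. GGGCGG was in 7, against 35.7%, CCAAT in 4, against 37.4%, and CACGTG in 2, against 7.15%. None of the 12 held the full palindrome TGACGTCA (1.79% of all windows), TATAAA (13.6%) or 2 copies of AGGTCA 1 base apart (0.0396%). These matches describe letters in the windows and say nothing about binding.

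Cold exposure changed 5 of the 10 transcripts over both genotypes. Plin2 and Abhd5 rose 2.47-fold and 1.96-fold, Plin3 fell 4.16-fold, and Plin1 and Lipe fell by less than 1.5-fold. Over all genes 27.2% were called in this comparison, 12.9% higher and 14.3% lower, and among the 8475 genes averaging 5 or more, as all 10 members did, 51.9% were called. The members' share, 5 of 10, was near that of genes of such signal. Within KO, 2 members rose and 1 fell, against 19.2% of all genes called (8.34% higher, 10.8% lower, and 37.3% of those averaging 5 or more). Within WT, 2 rose and 2 fell, against 17.4% (9.39% higher, 7.98% lower, and 34.4%). Cold and room temperature arrays did not overlap for 5 members in KO, against 31.6% of all genes, and for 8 in WT, against 36.8%. These shares cover genes of any signal, and the share without overlap among genes averaging 5 or more was not counted. The median difference over the 10 was -0.03 in KO and -0.27 in WT, beside 0.00388 and -0.02 over all genes.

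**Figure D1:**
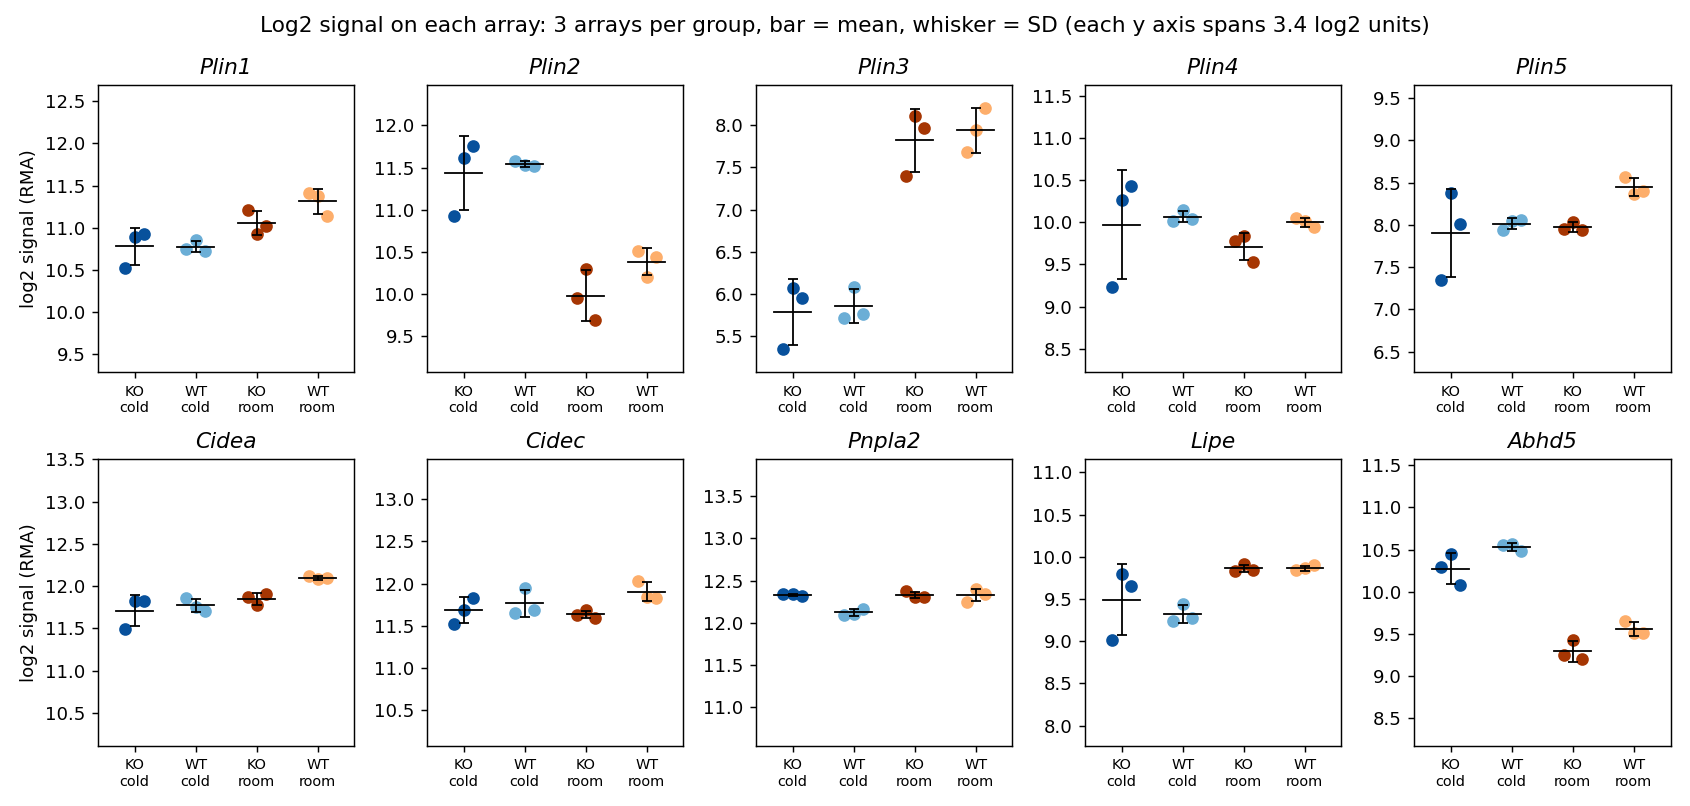
Log2 signal of the 10 genes on each of the 12 arrays, 1 panel per gene, with KO cold and WT cold left of KO and WT room temperature (point, 1 array; bar, mean of 3; whisker, SD; every y axis spans the same number of log2 units). Plin2 and Abhd5 sit higher and Plin3 lower in both cold groups, with no overlap with the room temperature arrays, while for Cidec and Plin4 the cold and room temperature arrays of a genotype overlap.

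Plin2, the perilipin found on droplets of most cell types, read 10.93, 11.62 and 11.76 in KO cold, against 9.96, 10.29 and 9.69 in KO room temperature. In WT cold its arrays read 11.58, 11.53 and 11.52, against 10.51, 10.20 and 10.44 in WT room temperature. Every cold array lay above every room temperature array of either genotype, while the genotypes overlapped at both temperatures. The difference was 1.45 ± 0.21 in KO, a 2.74-fold rise (limma, adjusted p = 5.10e-04), and 1.16 ± 0.21 in WT, a 2.23-fold rise (adjusted p = 0.00244).

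Plin3, a largely cytosolic perilipin that binds newly forming droplets, moved the other way. Its arrays read 5.35, 6.07 and 5.96 in KO cold, against 7.40, 8.11 and 7.96 in KO room temperature. They read 5.72, 6.09 and 5.77 in WT cold, against 7.68, 7.94 and 8.21 in WT room temperature. No cold array reached any room temperature array, and KO and WT overlapped at each temperature. The difference was -2.03 ± 0.23 in KO, 4.09-fold lower (limma, adjusted p = 1.10e-04), and -2.08 ± 0.23 in WT, 4.24-fold lower (adjusted p = 1.21e-04). Over both genotypes it was -2.06 ± 0.16 (adjusted p = 3.03e-06), at percentile 0.171 of the differences of all genes.

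Plin1, the adipocyte perilipin that holds ABHD5 at rest, fell in WT and over both genotypes. Its signal was 10.53, 10.89 and 10.92 in KO cold, against 11.22, 10.93 and 11.02 in KO room temperature. In WT cold it was 10.75, 10.86 and 10.73, against 11.42, 11.37 and 11.14 in WT room temperature. The temperatures did not overlap in either genotype, though in KO the nearest arrays, at 10.92 and 10.93, almost met. The difference was -0.28 ± 0.14 in KO (limma, adjusted p = 0.224), -0.53 ± 0.14 in WT (adjusted p = 0.0215) and -0.41 ± 0.10 over both (adjusted p = 0.00904). The WT difference of Plin1 was no longer called when 1 of 4 arrays was left out: WT cold replicate 1 (adjusted p = 0.0702) or 3 (0.0737), or WT room temperature replicate 1 (0.0746) or 2 (0.0693). Without KO cold replicate 1 the KO difference of Plin1 was -0.15 (adjusted p = 0.558).

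Plin4, a cytosolic perilipin that coats new droplets in adipocytes, was not called. It read 9.23, 10.26 and 10.43 in KO cold, against 9.77, 9.83 and 9.53 in KO room temperature, and 10.02, 10.14 and 10.04 in WT cold, against 10.04, 10.01 and 9.94 in WT room temperature. All neighbouring groups overlapped, and the difference over both genotypes was 0.16 ± 0.17 (95% interval -0.21 to 0.54; limma, adjusted p = 0.562). KO cold replicate 1 was the lowest of the 12 arrays for Plin4, and without that array the difference was called, at 0.63 in KO (adjusted p = 0.00723) and 0.35 over both genotypes (adjusted p = 0.0121).

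Plin5, the perilipin of oxidative tissues that tethers droplets to mitochondria, read 7.34, 8.37 and 8.01 in KO cold, against 7.96, 8.04 and 7.93 in KO room temperature. In WT cold it read 7.94, 8.04 and 8.06, against 8.57, 8.37 and 8.41 in WT room temperature. KO cold spanned the KO room temperature arrays, whereas the WT temperatures did not overlap. Neither the difference of -0.07 ± 0.20 in KO (limma, adjusted p = 0.875) nor that of -0.44 ± 0.20 in WT (95% interval -0.88 to 0.01, adjusted p = 0.182) was called. Without KO cold replicate 1 the Plin5 difference was 0.21 in KO and -0.11 over both genotypes, neither called.

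Cidea, the droplet fusion protein known as a brown fat marker, read 11.49, 11.82 and 11.82 in KO cold, against 11.87, 11.77 and 11.90 in KO room temperature. In WT cold it read 11.86, 11.75 and 11.70, against 12.12, 12.08 and 12.10 in WT room temperature. WT room temperature stood above the other 3 groups, which overlapped one another. The differences of -0.14 ± 0.12 in KO (limma, adjusted p = 0.517), -0.33 ± 0.12 in WT (adjusted p = 0.0869) and -0.23 ± 0.09 over both (adjusted p = 0.0647) were not called. Cidec, the relative of Cidea that builds large droplets, averaged 11.68 ± 0.15 in KO cold, against 11.64 ± 0.04 in KO room temperature, and 11.77 ± 0.16 in WT cold, against 11.90 ± 0.11 in WT room temperature (SD, n = 3 each). Neighbouring groups of Cidec overlapped, and its difference over both genotypes was -0.05 ± 0.09 (95% interval -0.25 to 0.15; limma, adjusted p = 0.784).

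Among the lipolytic genes, Abhd5, which switches on adipose triglyceride lipase, rose by nearly the same amount in both genotypes. It read 10.29, 10.45 and 10.08 in KO cold, against 9.25, 9.43 and 9.20 in KO room temperature. It read 10.55, 10.57 and 10.48 in WT cold, against 9.66, 9.52 and 9.52 in WT room temperature. Its 4 groups did not overlap, in the order WT cold, KO cold, WT room temperature and KO room temperature from high to low. The difference was 0.98 ± 0.13 in KO, a 1.97-fold rise (limma, adjusted p = 2.37e-04), and 0.97 ± 0.13 in WT, a 1.96-fold rise (adjusted p = 2.98e-04). Over both genotypes the adjusted p was 7.98e-06.

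The lipase that ABHD5 activates, Pnpla2, varied least of the 10 genes across the 12 arrays, between 12.09 and 12.40. It read 12.34, 12.34 and 12.31 in KO cold, against 12.37, 12.31 and 12.30 in KO room temperature, and 12.09, 12.11 and 12.17 in WT cold, against 12.25, 12.40 and 12.35 in WT room temperature. WT cold was below the other 3 groups, which overlapped. The cold difference was not called in KO (95% interval -0.22 to 0.22; limma, adjusted p = 0.998) or in WT (-0.21 ± 0.10, adjusted p = 0.207), and over both it was -0.10 ± 0.07 with an interval of -0.26 to 0.05. The probe set is among the brightest of the array, above 99.9% of genes by mean, and nearness to saturation was not tested.

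Lipe, hormone-sensitive lipase, which cuts diacylglycerol, fell over both genotypes. It read 9.01, 9.80 and 9.66 in KO cold, against 9.83, 9.91 and 9.85 in KO room temperature. It read 9.24, 9.44 and 9.27 in WT cold, against 9.84, 9.86 and 9.90 in WT room temperature. The cold arrays were below the room temperature arrays in both genotypes, and KO and WT overlapped. The difference was -0.37 ± 0.18 in KO (limma, adjusted p = 0.178), -0.55 ± 0.18 in WT (adjusted p = 0.0505) and -0.46 ± 0.12 over both (adjusted p = 0.0145). The WT value was close to the threshold and was called without KO cold replicate 1 (adjusted p = 0.00445), 2 (0.0344) or 3 (0.0489), arrays that enter it only through the shared estimate of spread. Without KO cold replicate 1 the KO difference of Lipe was -0.13 (adjusted p = 0.545).

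**Figure D2:**
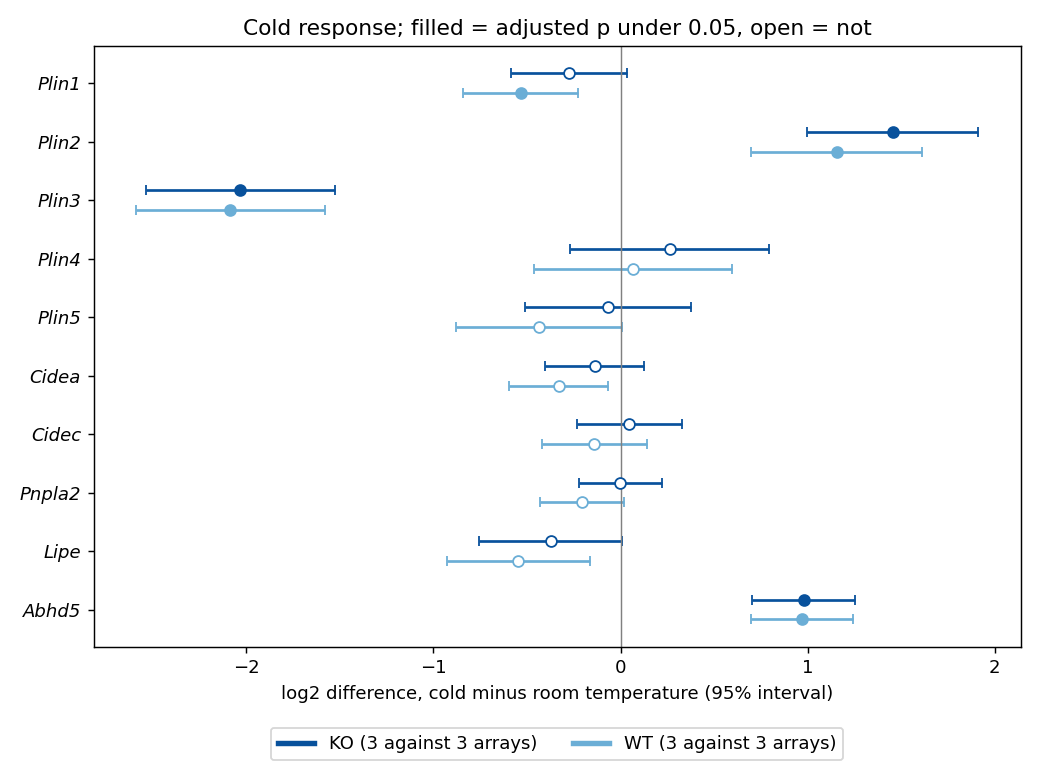
Difference in log2 signal, cold minus room temperature, for each of the 10 genes in KO (upper) and WT (lower), with the 95% interval of the limma fit (3 against 3 arrays each; filled, adjusted p under 0.05). Plin2 and Abhd5 lie right of 0 and Plin3 left of -1.5 in both genotypes, and the 2 intervals of every gene overlap.

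KO cold replicate 1 stood below the other 2 KO cold arrays for 8 of the 10 genes. Against their mean it was lower by 1.11 for Plin4, 0.85 for Plin5, 0.76 for Plin2, 0.72 for Lipe and 0.67 for Plin3, and within 0.03 for Pnpla2 and Abhd5. A list of 9 common adipocyte genes (Adipoq, Pparg, Cebpa, Slc2a4, Lpl, Cd36, Retn, Adig and Fabp4) differed by -0.30 on that array, and the median over genes with a mean of at least 5 by -0.10. Without it, 4 members were called in KO, Plin4 being added, and 7 in WT, where Plin5 (adjusted p = 0.0309), Cidea (0.0449) and Lipe were added. The WT differences themselves stayed the same, as this array enters them only through the shared estimate of spread. The share of all genes called without this array is not given here, so these counts are not a result about the members. Plin5 was also called over both genotypes without KO cold replicate 2 (-0.37, adjusted p = 0.0453). The part of adipocyte content in these values was not tested.

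**Figure D3:**
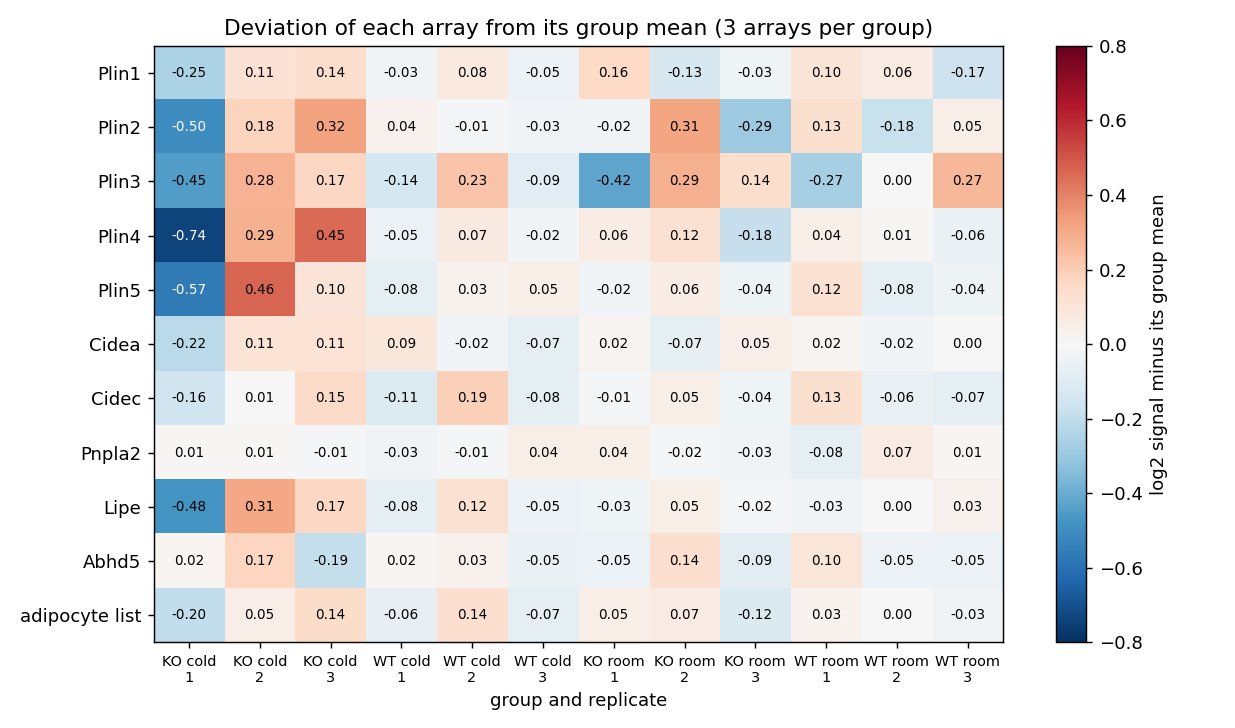
Deviation of each array from the mean of its group, in log2 units, for the 10 genes and the common adipocyte list (columns, the 12 arrays by group and replicate; blue, below the group mean; red, above). KO cold replicate 1 is the lowest array of its group for 8 of the 10 genes, and Pnpla2 stays within 0.08 of its group mean throughout.

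The within-group deviations of several coat and lipase genes ran together over the 12 arrays, most of all Plin5 with Lipe (Pearson r = 0.93), Plin4 with Lipe (r = 0.91) and Plin2 with Plin4 (r = 0.88). With the common adipocyte list, r was 0.87 for Plin4, 0.86 for Cidec, 0.79 for Plin2 and 0.78 for Lipe, against 0.06 for Abhd5 and -0.10 for Pnpla2. With the macrophage list of 13 genes r was 0.79 for Plin4, 0.86 for Cidec, 0.80 for Plin2 and 0.73 for Lipe, against -0.06 for Abhd5 and -0.49 for Pnpla2. These are descriptions over arrays that share a dissection and an RNA sample, with KO cold replicate 1 contributing the widest deviations.

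The common adipocyte list was itself lower in the cold, at 10.06 to 10.40 in KO cold, against 10.48 to 10.66 in KO room temperature, and at 10.25 to 10.46 in WT cold, against 10.65 to 10.70 in WT room temperature. Over both genotypes 1 of its 9 genes was called higher and 3 lower, with a median of -0.10. Beside these, 27.2% of all genes and 51.9% of those averaging 5 or more were called. With the list mean as a covariate, chosen after the data were seen, the cold difference over both genotypes was 1.95 for Plin2 (adjusted p = 0.00117), 0.99 for Abhd5 (adjusted p = 0.0114) and -1.63 for Plin3 (adjusted p = 0.0129). In the same fit the difference was -0.09 for Plin1 (adjusted p = 0.854) and 0.04 for Lipe (adjusted p = 0.950), neither called. Plin4 was called in it at 1.02 (adjusted p = 0.0207). The list did not overlap between temperatures in either genotype, so this fit cannot tell adipocyte content from temperature.

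Plin2 is also expressed by macrophages. The 13-gene macrophage list lay at 6.16 to 6.89 in KO cold, against 6.27 to 6.48 in KO room temperature, and at 6.15 to 6.44 in WT cold, against 5.54 to 5.94 in WT room temperature. In the cold 3 of its genes were called higher and 1 lower in KO, and 6 higher and 0 lower in WT. Beside these, 19.2% of all genes were called in KO and 17.4% in WT (37.3% and 34.4% of those averaging 5 or more). With this list as a covariate the cold difference of Plin2 was 0.64 in WT, not called (adjusted p = 0.0847), and 0.96 over both genotypes (adjusted p = 8.27e-04). In WT the list itself did not overlap between temperatures, so there the fit cannot tell macrophage content from temperature. Of the 14 skeletal muscle genes, 0 were called in any comparison, though their median difference reached 3.0 for cold against room temperature in WT.

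No difference between knockout and wild type was called for any of the 10 transcripts at either temperature by the limma test. In the cold 0 of 10 were called, against 0.911% of all genes, and 0 of the 10 had an unadjusted p under 0.05. At room temperature 0 of 10 were called, against 0.55% of all genes, and 1 of the 10, Plin5, had an unadjusted p under 0.05. Over both temperatures 0 were called, against 1.63%, and 1, Abhd5, had an unadjusted p under 0.05. The 95% intervals set the size that could have been missed: they ran from -0.62, for Plin4, to 0.55, for Lipe, in the cold, and from -0.92, for Plin5, to 0.39, for Plin3, at room temperature.

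**Figure D4:**
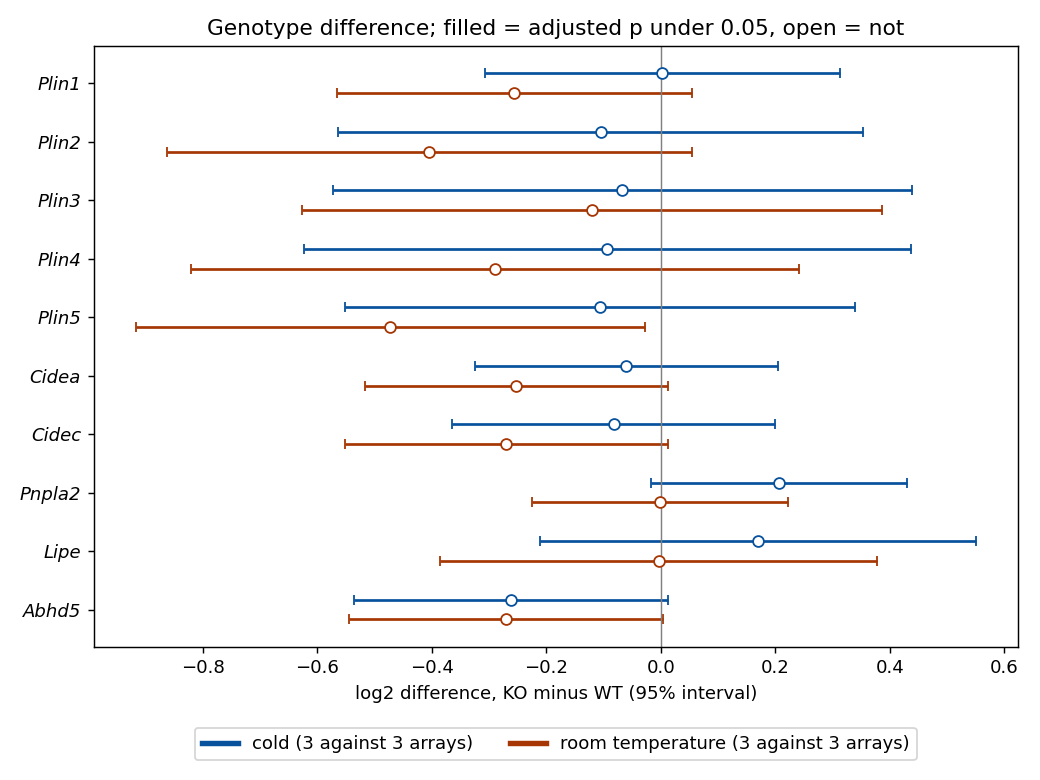
Difference in log2 signal, KO minus WT, for each of the 10 genes in the cold (upper) and at room temperature (lower), with the 95% interval of the limma fit (3 against 3 arrays each; all symbols open, none with adjusted p under 0.05). The room temperature values lie at or left of 0 for all 10 genes, with Plin5 at -0.47 the farthest.

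At room temperature all 10 differences were below 0, with a median of -0.26 beside 0.00853 over all genes. In Plin4, Plin5, Cidea, Cidec and Abhd5, 5 of the 10, every KO array lay below every WT array, against 17% of all genes with no overlap in this comparison. That share covers genes of any signal and was not counted for genes averaging 5 or more, as all 10 members did. The coat genes were at -0.47 ± 0.20 for Plin5 (adjusted p = 0.409), -0.40 ± 0.21 for Plin2 (0.508), -0.29 ± 0.24 for Plin4 (0.723) and -0.26 ± 0.14 for Plin1 (0.545). Plin3 was at -0.12 ± 0.23 (adjusted p = 0.903). The fusion proteins were at -0.25 ± 0.12 for Cidea (adjusted p = 0.462) and -0.27 ± 0.13 for Cidec (0.461). Of the lipolytic genes, Abhd5 stood at -0.27 ± 0.13 (adjusted p = 0.446), and Pnpla2 and Lipe within 0.01 of 0. In the same comparison the common adipocyte list had a median of -0.04 with 0 of 9 genes called. The brown adipocyte list lay at 7.97 to 8.27 in KO and 8.66 to 8.82 in WT, with a median of -0.14. Of its 11 genes, 0 were called higher and 3 lower. The white adipocyte list lay at 5.83 to 6.15 in KO and 5.19 to 5.77 in WT, with 0 of 7 called. The macrophage list lay at 6.27 to 6.48 in KO and 5.54 to 5.94 in WT, with a median of 0.71 and 0 of 13 called. The muscle list had a median of 2.56. The part of these cell types in the differences was not tested.

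In the cold, 7 of the 10 differences were below 0 and 3 above. Pnpla2 was higher in KO on every array (0.21 ± 0.10, adjusted p = 0.387) and Abhd5 lower on every array (-0.26 ± 0.13, adjusted p = 0.371), and these 2 of 10 without overlap compare with 20.6% of all genes. The other 8 lay between -0.11 and 0.17. The signs rested on KO cold replicate 1: without it 8 of the 10 were above 0 and 2 below, from -0.27 for Abhd5 to 0.41 for Lipe, with 0 called (adjusted p = 0.143 or more). Over both temperatures, Abhd5 was at -0.27 ± 0.09 in KO against WT (adjusted p = 0.177), lower on all 3 KO arrays at each temperature.

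The response to cold was compared between genotypes by the interaction, the KO response minus the WT response. It was called for 0 of the 10 genes, against 0.0271% of all genes. The values ran from 0.01 for Abhd5 to 0.37 for Plin5, all above 0, with adjusted p from 0.641 to 0.993. The median was -0.01 over all genes and -0.11 over those averaging 5 or more. The interaction contains the KO minus WT difference at room temperature, which was below 0 for all 10, so these signs are not a separate observation. For the 3 strong responders the interaction was 0.05 for Plin3 (95% interval -0.66 to 0.77), 0.30 for Plin2 (-0.35 to 0.95) and 0.01 for Abhd5 (-0.38 to 0.40). Without KO cold replicate 1 the values ran from 0.000237 for Abhd5 to 0.65 for Plin5, with Plin4 at 0.57, Plin2 at 0.55, Lipe at 0.41 and Plin3 at 0.28, and 0 were called (adjusted p = 0.268 or more).

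Genes around the 10 in the same pathway were followed with 4 lists of 49 genes, of which 41 were measured. Over both genotypes 10 of the 41 rose in the cold and 12 fell, with a median of -0.04 and beside 27.2% of all genes called. Of the 36 that averaged 5 or more, 21 were called, beside 51.9% of all genes of such signal. In KO 5 rose and 10 fell, beside 19.2% of all genes called, and in WT 5 rose and 7 fell, beside 17.4%. Signals that raise or lower cAMP were called in both directions, and so were the other lipases and the proteins of droplet formation.

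**Figure D5:**
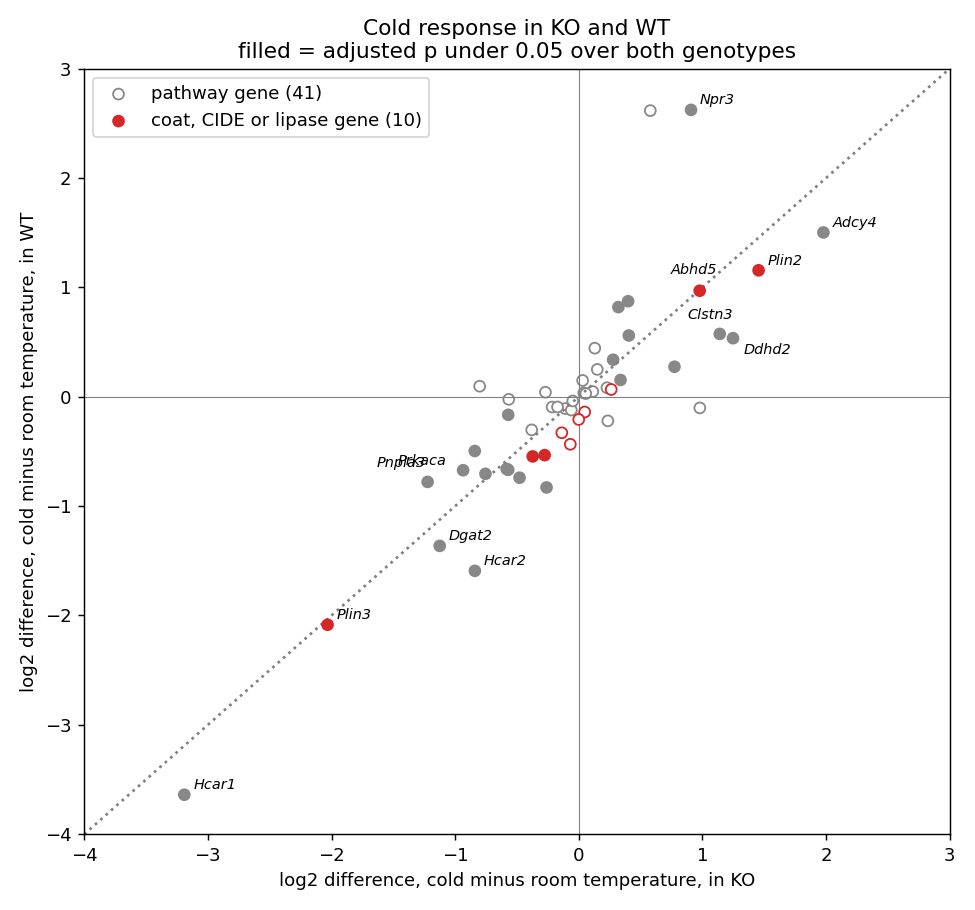
Cold minus room temperature difference in log2 signal in KO (x) and in WT (y) for the 41 pathway genes (grey) and the 10 coat, CIDE and lipase genes (red); filled, adjusted p under 0.05 over both genotypes; dotted line, equal response. Plin3, Plin2 and Abhd5 lie near the dotted line, with Hcar1 at the lower left and Adcy4 at the upper right, while Npr3 lies above it.

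Of 12 measured genes of lipolytic signalling, 5 rose and 5 fell over both genotypes. Hcar1, the lactate receptor that restrains lipolysis in adipocytes, read 5.49, 5.71 and 6.21 in KO cold, against 9.11, 9.01 and 8.87 in KO room temperature. It read 4.56, 6.23 and 4.72 in WT cold, against 8.95, 8.91 and 8.56 in WT room temperature. The temperatures did not overlap, and the difference over both was -3.41 ± 0.25 (limma, adjusted p = 1.55e-06). Adcy4, an adenylyl cyclase, rose 3.94-fold in KO and 2.83-fold in WT (log2 difference 1.74 ± 0.15 over both, adjusted p = 4.84e-06). Npr3, the clearance receptor for natriuretic peptides, which themselves drive lipolysis, rose by 1.76 ± 0.21 over both genotypes (adjusted p = 4.53e-05). In KO the rise was 0.91, close to the threshold (adjusted p = 0.0464), and the temperatures overlapped. In WT it was 2.62 (adjusted p = 1.19e-04) without overlap. The Npr3 interaction of -1.71 was not called (adjusted p = 0.210). Prkaca, a catalytic subunit of protein kinase A, fell over both genotypes (-0.80 ± 0.18, adjusted p = 0.00491), with -0.94 ± 0.26 in KO (adjusted p = 0.0222) and -0.67 ± 0.26 in WT (adjusted p = 0.0964). The KO call of Prkaca was lost without KO room temperature replicate 2 (0.0654) or 3 (0.0618).

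Of the inhibitors and fatty acid handling genes, 1 of 5 rose and 1 fell. G0s2, the inhibitor of adipose triglyceride lipase, read 6.80, 7.37 and 7.31 in KO cold, against 8.36, 7.67 and 7.98 in KO room temperature. It read 8.02, 7.76 and 8.09 in WT cold, against 8.45, 8.73 and 8.19 in WT room temperature. All cold arrays were below the room temperature arrays of their genotype, with a difference of -0.67 ± 0.15 over both (limma, adjusted p = 0.00484). G0s2 has several probe sets, and their mean gave -0.27, which was not called (adjusted p = 0.240). In KO the call for G0s2 was lost without KO cold replicate 1 (adjusted p = 0.0559) or KO room temperature replicate 1 (0.0614). Faf2, an endoplasmic reticulum protein that reaches droplets and binds the lipase, rose by 0.31 ± 0.10 over both genotypes (adjusted p = 0.0304). The Faf2 call was lost without KO cold replicate 2 or 3, WT cold replicate 2 or 3, KO room temperature replicate 2 or 3, or WT room temperature replicate 1 (adjusted p = 0.0528 to 0.0786).

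Of 8 other intracellular lipases, 1 rose and 3 fell in the cold over both genotypes. Ddhd2, a lipase best known from neurons, rose by 1.25 ± 0.14 in KO (limma, adjusted p = 1.17e-04) and 0.53 ± 0.14 in WT (adjusted p = 0.0233). The WT call of Ddhd2 was lost without any 1 WT cold array or without WT room temperature replicate 2 or 3 (adjusted p = 0.0545 to 0.0859). Pnpla3, a close relative of Pnpla2, fell by 1.00 over both (± 0.19, adjusted p = 0.00169). Lipa, the acid lipase of lysosomes, fell by 0.83 in WT (± 0.16, adjusted p = 0.00368), against a difference of -0.26 in KO that was not called (adjusted p = 0.323).

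Ddhd2 and Lipa were also the 2 of 41 pathway genes that were lower in KO than in WT at room temperature. Ddhd2 read 8.56, 8.25 and 8.16 in KO and 9.40, 9.14 and 9.28 in WT (-0.95 ± 0.14; limma, adjusted p = 0.0126). Lipa read 9.35, 9.27 and 9.34 in KO and 10.34, 10.11 and 10.21 in WT (-0.90 ± 0.16, adjusted p = 0.0298). Genotypes did not overlap for either gene, but the Lipa call was lost when any 1 of the 6 room temperature arrays was left out (adjusted p = 0.0695 to 0.113), and the Ddhd2 call without KO replicate 2 (0.0656) or 3 (0.0623) or WT replicate 1 (0.0573). The macrophage list, at 6.27 to 6.48 in KO and 5.54 to 5.94 in WT, did not overlap here either. With it as a covariate neither Ddhd2 (-0.76, adjusted p = 0.232) nor Lipa (-1.18, adjusted p = 0.103) was called. In that fit Zbtb7b itself was not called either (-1.10, adjusted p = 0.150). Because the list separates the genotypes, this fit cannot tell macrophage content from genotype. In the cold 0 of the 41 pathway genes were called between genotypes, and the interaction was called for 0.

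Of 16 genes of droplet formation and other droplet proteins, 3 rose and 3 fell over both genotypes. Dgat2, which makes the last step of triacylglycerol synthesis at the droplet, read 10.53, 11.20 and 11.53 in KO cold, against 12.23, 12.24 and 12.16 in KO room temperature. It read 11.31, 11.19 and 10.81 in WT cold, against 12.49, 12.44 and 12.47 in WT room temperature. No cold array reached a room temperature array (-1.24 ± 0.15 over both; limma, adjusted p = 6.57e-05). Hsd17b11, a dehydrogenase found on droplets, fell by 0.73 over both (± 0.10, adjusted p = 1.20e-04). Clstn3, whose adipocyte form limits the action of CIDE proteins, rose by 0.86 ± 0.15 (adjusted p = 7.45e-04) at a mean signal of 3.31, near the lower end of the array. S100b fell over both genotypes (-0.62 ± 0.14, adjusted p = 0.00587), with -0.57 ± 0.20 in KO (adjusted p = 0.0707) and -0.67 ± 0.20 in WT (adjusted p = 0.0395), a WT call lost without any 1 WT cold array, WT room temperature replicate 2 or 3, or KO room temperature replicate 1 (adjusted p = 0.0520 to 0.155). With the common adipocyte list as a covariate, Dgat2 (-0.60, adjusted p = 0.176), Hsd17b11 (-0.45, adjusted p = 0.187) and Pnpla3 (-0.33, adjusted p = 0.659) were not called over both genotypes. Nor were G0s2 (-0.46, adjusted p = 0.463), Lipa (-0.31, 0.498), Npr3 (0.84, 0.137), Clstn3 (1.01, 0.0784), Ddhd2 (0.78, 0.0519) and Faf2 (0.54, 0.121). Hcar1 and Adcy4 were called over both genotypes in every alternative fit. Because the list separates the temperatures, this fit cannot tell adipocyte content from cold.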

How the data were processed

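Total RNA of brown fat (400 ng per array, extracted with Trizol per the labels' protocols) was hybridised to 12 Affymetrix whole-transcript arrays, and the deposited log2 signals were made by the authors with RMA, with oligo and limma named as tools per the submitters' processing notes; versions, array parameters and batches are not given in the sources used here. Of 41345 probe sets, 23521 carried 1 gene symbol in the platform annotation, 1814 several and 16010 none; the brightest probe set per gene over the 12 arrays gave 22180 genes.

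From these values limma 3.58.1 in R 4.3.3 fitted 1 mean per group over all 12 arrays (8 residual degrees of freedom), with empirical Bayes moderation and Benjamini-Hochberg adjustment over all genes, for 7 comparisons, after a check on simulated data. Precision is limited by how few arrays each group holds. The 10 genes, the 4 pathway lists and the 8 marker lists were chosen with earlier results of these data known. Of each pathway list, up to 3 genes with the smallest p among those that passed are named per comparison, and of the members that passed, the 4 with the smallest p have their 3 most alike genes named. Alternatives covered normalization, filters, probe set choice, the spread model, array weights, a replicate block, list means as covariates and leaving out each array.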

Additional observations from a re-analysis of the deposited data

How the results depend on the processing

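Under 24 alternatives, 1611 of 1650 member values kept their side of the threshold, 7 lost the call, 31 gained it and 1 reversed, and 76 uncalled values changed sign. Plin3 was called in every cold comparison under each of these alternatives, between -2.34 and -1.63 over both genotypes. So was Abhd5, between 0.89 and 1.02 over both genotypes. Plin2 was called under each of them in KO and over both genotypes (0.96 to 1.95 over both). Arrays with a muscle list mean of at most 5 were 1 in KO cold, 0 in WT cold, 1 in KO room temperature and 2 in WT room temperature, too few to say anything of stability, and are not among these counts. Lipe over both genotypes reversed to 0.0388 with the adipocyte list as a covariate, where it was not called (adjusted p = 0.950). The 4 members called for cold in WT became 7 with a trended and robust spread (2 higher, 5 lower), where Pnpla2, Cidea and Lipe were added, and 3 to 7 when 1 array was left out, 7 without KO cold replicate 1. With the trended and robust spread the differences of Pnpla2 (-0.21), Cidea (-0.33) and Lipe (-0.55) were unchanged. No member was called between genotypes or in the interaction under any of these alternatives. With a replicate block the members called for cold were 3 in KO, 5 in WT and 5 over both, and 0 between genotypes. The share of all genes called under each alternative is not given here, so these counts have no background beside them. Between arrays of different groups, deviations from the group mean were correlated over genes averaging 5 or more. The median r was -0.11 for the same replicate number (-0.54 to 0.45, 18 pairs) and 0.07 for different numbers (-0.56 to 0.63, 36 pairs). Whether arrays of the same number share a batch cannot be told from these values. Centring arrays on their medians moved the all-gene median of the KO cold comparison to -0.117, against 0.00388. The causes of these changes were not tested.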

Other observations

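Of the perilipin genes, 3 lie close together on mouse chromosome 17 in the RefSeq gene order of GRCm38.p6: Plin4 and Plin5 are neighbours, and Plin3 follows after 7 other protein-coding genes. Over both genotypes Plin3 had a cold difference of -2.06, against 0.16 for Plin4 and -0.25 for Plin5. Of the 7 genes between them, 3 rose in the cold by the limma test (Fem1a 1.01, Ticam1 0.42 and Dpp9 0.41) and 1 fell (Lrg1 -0.52), and Arrdc5, which follows Plin3, was at -0.05. These genes were looked up after the member values were seen. In the same comparison 27.2% of all genes, and 51.9% of those averaging 5 or more, were called.

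Among 8474 other genes averaging 5 or more, those most like a member over the 12 arrays were Nudt6 (r = 0.983), Cisd1 and Aco1 (r = 0.981 each) for Plin3, and Gtf2ird1 (r = 0.990), Ppif (r = 0.985) and Lncbate1 (r = 0.982) for Abhd5. For Plin2 they were Usp33 (r = 0.974), Aste1 (r = 0.969) and 3930402G23Rik (r = 0.968), and for Plin1 they were Cxcl12 (r = 0.967), Fastk (r = 0.962) and Zfp36l2 (r = 0.958). The 12 points share the 2 temperatures and the RNA sample of each array, and the 3 genes most like Plin3 had cold differences of -1.24, -1.16 and -1.21 over both genotypes, and those most like Abhd5 had 1.32, 1.22 and 1.92.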
